A study of Mus musculus with 8 samples.

Results

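The genes described here write, recruit for or read methylation of lysine 9 on histone H3. They are Trim28, Setdb1, Atf7ip, Suv39h1, Suv39h2, Ehmt1, Ehmt2, Cbx1, Cbx3 and Cbx5, taken by symbol as 10 of the 50902 genes kept from an RNA-seq table of mouse embryonic stem cells (ESCs), and each had 1 row. The cells were E14 ESCs, a mouse line, grown in N2B27 medium with LIF and 2i, in which siRNA against Baz2a was transfected and RNA was collected 3 days later. All cells carried a PiggyBac-inserted, siRNA-resistant BAZ2A transgene with FLAG and HA tags. It was wild-type in 4 libraries (ESC + F/H-BAZ2Ar WT, here WT) and lacked the TAM domain, an RNA-binding domain of BAZ2A, in 4 libraries (ESC + F/H-BAZ2Ar ΔTAM, here ΔTAM). The comparison asks what changes in these transcripts when the resistant protein lacks TAM. The methods state that such lines came from isolated single-cell clones, so the effect of the deletion and of the clone cannot be told apart. The study mentions biological triplicates in general. For these 4 libraries per line nothing states that they were separate cultures, so the p-values measure only the spread between these libraries.

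Reads on the entries of the table, recovered from the deposited values as described below, numbered 7382666 to 7819700 per WT library and 6679719 to 8818805 per ΔTAM library. Baz2a, whose reads come from the endogenous gene and the transgene together, was at 9.95, 10.3, 10.5 and 11.2 RPKM (reads per kilobase, scaled to library size) in WT and at 17.05, 18.6, 18.5 and 18.9 RPKM in ΔTAM. The groups did not overlap, and the log2 fold change was 0.79 ± 0.046 (SE; limma, adjusted p = 3.4e-05). The 2 lines therefore differed in Baz2a transcript level as well as in TAM, and the part of that difference in the results below was not tested. The 5 ESC markers were all present, and their summed level was 69.6 to 72.0 RPKM in WT and 60.1 to 65.3 RPKM in ΔTAM. Sox2 was 27.3 ± 0.343 RPKM in WT and 20.4 ± 0.735 RPKM in ΔTAM (SD, n = 4; limma adjusted p = 6.8e-05), and Esrrb fell by 0.20 on the log2 scale (limma adjusted p = 0.00176). Pou5f1, Nanog and Zfp42 had log2 fold changes of -0.057, 0.023 and 0.0045 and did not pass the test (limma adjusted p = 0.304, 0.645 and 0.915). The 19 markers of primitive endoderm, trophoblast, mesendoderm, neural cells and fibroblasts summed to 1.74 to 1.97 RPKM in WT and 1.26 to 1.70 RPKM in ΔTAM, with 1 of them, Dcn, at 0 in every library. Of the 5 that were tested 0 rose and 2 fell, beside 19.9% and 16% of all genes tested. Nes fell from 0.461 ± 0.0574 to 0.232 ± 0.016 RPKM (SD, n = 4; limma adjusted p = 2.9e-04) and Eomes by 0.26 on the log2 scale (limma adjusted p = 0.0359). Cdx2 had a log2 fold change of 0.28 (limma adjusted p = 0.130). With voom on the recovered reads Cdx2 rose by 0.39 (limma adjusted p = 0.0327). There 7 markers were tested, 1 rose and 3 fell, beside 21.9% of all genes in each direction. In such bulk RNA, fewer cells of a type and less RNA per cell cannot be told apart, and the part of these marker differences in the results was not tested.

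Methylated H3K9 marks heterochromatin, the compact and mostly silent part of the genome. SETDB1, recruited by TRIM28 (KAP1) through KRAB zinc-finger proteins and stabilised by ATF7IP, methylates H3K9 at retrotransposons and imprinted loci in ESCs. SUV39H1 and SUV39H2 act at pericentromeric repeats, and GLP (Ehmt1) and G9a (Ehmt2) form the heteromer that dimethylates H3K9 in euchromatin. The HP1 proteins HP1β (Cbx1), HP1γ (Cbx3) and HP1α (Cbx5) bind methylated H3K9 through a chromodomain.

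The promoters of these genes are shown first because they share features that the choice of genes did not use. All 10 matched a RefSeq promoter (GRCm38.p6), and the 250 bases upstream of the annotated start were searched on both strands for short motifs. The GC box GGGCGG, the core recognised by Sp1-type factors, was found in 10 of 10 windows, against 32.7% of 32851 promoter windows of the same length. The windows held a median of 19 CpG (range 11 to 29), against 6 over all promoters, and their median GC content was 60.6%, against 52.4%. The TATAAA motif was in 0 of 10 windows, against 12.4% of all. CCAAT was in 4 windows, those of Setdb1, Atf7ip, Suv39h1 and Cbx5, against 33.8% of all. The ETS core CCGGAAG was found only in the Setdb1 window (6.91% of all), where it occurs on both strands. The E2F core TTCCCGC lay in the Trim28 and Suv39h2 windows (3.82%), the YY1 core ATGGCGG in the Suv39h1 and Cbx5 windows (2.21%), the E-box CACGTG in the Ehmt2 and Cbx5 windows (6.02%) and the NRF1 half-site GCATGCG in none (3.02%). The background is all promoters, and no comparison with promoters of expressed genes or of equal CpG content was made. The shared features may thus be those of CpG-rich promoters in general. A match of letters is a description and not a site of binding.

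6 of these windows follow, for the recruiter and enzyme of the SETDB1 pathway, for the GLP and G9a pair and for HP1β and HP1α, the genes that the comparisons below turn on. Capitals mark matches to the motifs above on either strand, and the sequences run 5′ to 3′ towards the start of each gene.
Trim28: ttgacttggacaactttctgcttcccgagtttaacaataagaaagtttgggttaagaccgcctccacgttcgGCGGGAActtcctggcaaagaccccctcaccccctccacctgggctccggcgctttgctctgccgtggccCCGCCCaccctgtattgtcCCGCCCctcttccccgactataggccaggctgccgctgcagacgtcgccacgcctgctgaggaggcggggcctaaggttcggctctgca
Setdb1: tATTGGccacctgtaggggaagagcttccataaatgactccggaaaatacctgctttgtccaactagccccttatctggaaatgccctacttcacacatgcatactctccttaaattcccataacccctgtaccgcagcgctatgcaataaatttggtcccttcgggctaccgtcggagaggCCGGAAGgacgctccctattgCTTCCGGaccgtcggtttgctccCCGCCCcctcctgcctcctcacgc
Ehmt1: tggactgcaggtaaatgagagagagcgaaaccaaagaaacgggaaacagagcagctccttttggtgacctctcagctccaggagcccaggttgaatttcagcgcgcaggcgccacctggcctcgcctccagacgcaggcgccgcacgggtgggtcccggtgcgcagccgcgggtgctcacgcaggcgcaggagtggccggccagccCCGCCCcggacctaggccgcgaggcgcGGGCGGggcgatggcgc
Ehmt2: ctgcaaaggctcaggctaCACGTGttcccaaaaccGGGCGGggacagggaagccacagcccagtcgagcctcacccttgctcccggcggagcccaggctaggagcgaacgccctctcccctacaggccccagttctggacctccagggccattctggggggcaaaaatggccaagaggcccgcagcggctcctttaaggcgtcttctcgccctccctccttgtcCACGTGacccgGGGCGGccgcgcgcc
Cbx1: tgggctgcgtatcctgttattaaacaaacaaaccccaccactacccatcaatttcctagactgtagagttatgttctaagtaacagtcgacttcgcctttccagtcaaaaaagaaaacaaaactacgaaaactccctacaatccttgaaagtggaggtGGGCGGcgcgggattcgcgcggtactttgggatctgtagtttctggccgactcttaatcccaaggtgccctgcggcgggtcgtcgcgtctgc
Cbx5: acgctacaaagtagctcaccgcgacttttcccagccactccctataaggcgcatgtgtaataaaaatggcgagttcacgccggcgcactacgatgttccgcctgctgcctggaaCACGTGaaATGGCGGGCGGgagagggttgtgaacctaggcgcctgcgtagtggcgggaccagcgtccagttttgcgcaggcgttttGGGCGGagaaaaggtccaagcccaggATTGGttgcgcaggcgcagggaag

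In GRCm38 they lie at chr7:13023902-13024151 (plus strand, Trim28), chr3:95357203-95357452 (minus, Setdb1), chr2:24919610-24919859 (minus, Ehmt1), chr17:34898224-34898473 (plus, Ehmt2), chr11:96788885-96789134 (plus, Cbx1) and chr15:103239853-103240102 (minus, Cbx5). The Trim28 window has its E2F core 178 to 172 bases before the start and 2 GC boxes 108 to 103 and 89 to 84 bases before it. In the Setdb1 window the ETS cores lie 68 to 62 and 47 to 41 bases before the start, followed by a GC box at 24 to 19. Ehmt1 and Ehmt2 each hold 2 GC boxes, and Ehmt2 alone of the pair holds E-boxes, at 232 to 227 and at 26 to 21 bases before its start. In the Cbx5 window the YY1 core, at 128 to 122, overlaps a GC box at 123 to 118. The Trim28 window lies wholly inside the gene span that the deposited table gives, which starts 25038 bases before the RefSeq start. The Ehmt1, Ehmt2 and Cbx1 windows run 5, 5 and 8 bases into the deposited spans, and the Cbx5 window ends 36 bases upstream of its own.

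Transcripts of the co-repressor and the enzyme of the SETDB1 pathway were higher in ΔTAM, while those of their partner Atf7ip were not distinguishable between the lines. Trim28 (ENSMUSG00000005566, chr7:12999114-13031035, GRCm38) was at 6.72, 6.87, 7.16 and 6.46 RPKM in WT and at 7.29, 8.26, 7.83 and 7.71 RPKM in ΔTAM. Every ΔTAM library was above every WT library, the nearest values being 7.29 and 7.16. Trim28 rose by a log2 fold change of 0.19 ± 0.046 (SE; limma adjusted p = 0.0148), from a mean of 6.80 ± 0.296 to 7.77 ± 0.398 RPKM (SD, n = 4).

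Setdb1 (ENSMUSG00000015697, chr3:95323525-95357202) was at 0.989, 0.949, 0.952 and 0.977 RPKM in WT and at 1.10, 1.18, 1.09 and 1.14 RPKM in ΔTAM. The 2 groups were again fully separate, and Setdb1 rose by 16.4% in mean RPKM (log2 fold change 0.20 ± 0.031 SE; limma adjusted p = 0.00204). Atf7ip (ENSMUSG00000030213, chr6:136506167-136610862), which encodes the cofactor that protects SETDB1 and keeps it in the nucleus, was at 0.218, 0.214, 0.227 and 0.216 RPKM in WT and at 0.222, 0.205, 0.211 and 0.222 RPKM in ΔTAM. Those ranges overlap, and its log2 fold change of -0.017 had a 95% interval of -0.089 to 0.054 (limma adjusted p = 0.695), which does not reach the Setdb1 value. The 1137 to 1169 Atf7ip reads in the WT libraries are a depth close to the 1562 to 1698 Setdb1 reads.

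The ratio of Setdb1 to Atf7ip reads, which does not depend on library size, was 1.46, 1.42, 1.35 and 1.45 in WT and 1.59, 1.85, 1.65 and 1.65 in ΔTAM. It was higher in every ΔTAM library than in every WT library. The ratio of Trim28 to Setdb1 reads, by contrast, ranged from 6.26 to 7.13 in WT and from 6.29 to 6.83 in ΔTAM, so that the ΔTAM values lay inside the WT range. These ratios were computed after the separate values had been seen and are given without a test.

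The SUV39H pair, the methyltransferases of constitutive heterochromatin, did not differ detectably. Suv39h1 (ENSMUSG00000039231, chrX:8061171-8074760) was at 0.380, 0.374, 0.366 and 0.379 RPKM in WT and at 0.343, 0.386, 0.366 and 0.352 RPKM in ΔTAM. The highest value was a ΔTAM library and the lowest ones were too, and the log2 fold change was -0.041, with a 95% interval of -0.12 to 0.037 (limma adjusted p = 0.384). Its relative SD among WT libraries, 1.80%, was below the 6.24% expected from counting its 242 to 266 reads alone.

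Suv39h2 (ENSMUSG00000026646, chr2:3455815-3475031) was at 0.239, 0.191, 0.240 and 0.268 RPKM in WT and at 0.237, 0.223, 0.217 and 0.237 RPKM in ΔTAM. All 4 ΔTAM values lay within the WT range, whose relative SD of 13.7% was the widest of any gene of the set in either line. The log2 fold change was -0.022, with a 95% interval of -0.18 to 0.14 (limma adjusted p = 0.832), and without WT replicate 4 it turned to 0.026. A change of the size seen for Setdb1 lay outside the interval of either SUV39H gene on log2(RPKM + 0.1). That scale shrinks changes of these low genes more than those of Setdb1. With voom the Suv39h2 interval was -0.213 to 0.162, against a Setdb1 value of 0.220. At 188 to 278 reads per library, a fall of that size in Suv39h2 was thus at the edge of the interval. The ratio of Suv39h1 to Suv39h2 reads was 1.13, 1.39, 1.08 and 1.0 in WT and 1.024, 1.22, 1.19 and 1.05 in ΔTAM, and these overlap.

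The GLP and G9a genes differed in direction. Ehmt2 (G9a; ENSMUSG00000013787, chr17:34898469-34914052) was at 1.60, 1.65, 1.65 and 1.47 RPKM in WT and at 1.76, 1.80, 1.76 and 1.87 RPKM in ΔTAM. No ΔTAM library fell to the WT range, and Ehmt2 rose by a log2 fold change of 0.17 ± 0.042 (SE; limma adjusted p = 0.0189). This call was lost without ΔTAM replicate 4, the highest of the series (limma adjusted p = 0.0521). It was also lost with replicate number as a block (limma adjusted p = 0.0654).

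Ehmt1 (GLP; ENSMUSG00000036893, chr2:24789928-24919614) was at 0.101, 0.104, 0.110 and 0.102 RPKM in WT and at 0.0926, 0.0954, 0.0911 and 0.0870 RPKM in ΔTAM. Every ΔTAM library was below every WT library. The RPKM of Ehmt1 are small because the deposited values divide by the genomic span, 129.7 kb here, and its mean of 0.0978 RPKM lay just under the minimum of 0.1 RPKM for testing. In the fit without that minimum (25439 genes, of which 7.14% were called lower), its log2 fold change was -0.091 ± 0.031 (SE; limma adjusted p = 0.104), a value that the added 0.1 RPKM shrinks. Its 542 to 697 reads per library gave, with voom on reads recovered from the RPKM, a log2 fold change of -0.19 ± 0.050 (SE; limma adjusted p = 0.00418), where 21.9% of 12659 genes were called lower. On the log2(RPKM + 0.1) scale with a variance prior without a trend, the adjusted p of limma was 0.0245. The call on Ehmt1 thus depended on the model, and its direction did not change over the alternatives run.

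The ratio of Ehmt2 to Ehmt1 reads was 1.91, 1.92, 1.80 and 1.74 in WT and 2.28, 2.27, 2.32 and 2.59 in ΔTAM. The means were 1.84 ± 0.0874 and 2.36 ± 0.151 (SD, n = 4), and no library of either line came within the range of the other. This ratio too was computed after the separate values had been seen and is given without a test. How often the ratio of other gene pairs is apart was not computed. Counted per kb of exon, Ehmt1 made up 26.9% ± 0.941 of the summed Ehmt1 and Ehmt2 level in WT and 22.3% ± 1.06 in ΔTAM, whereas the sum itself, 39.1 to 43.3 in WT and 43.1 to 44.9 in ΔTAM, overlapped between the lines.

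**Figure D1:**
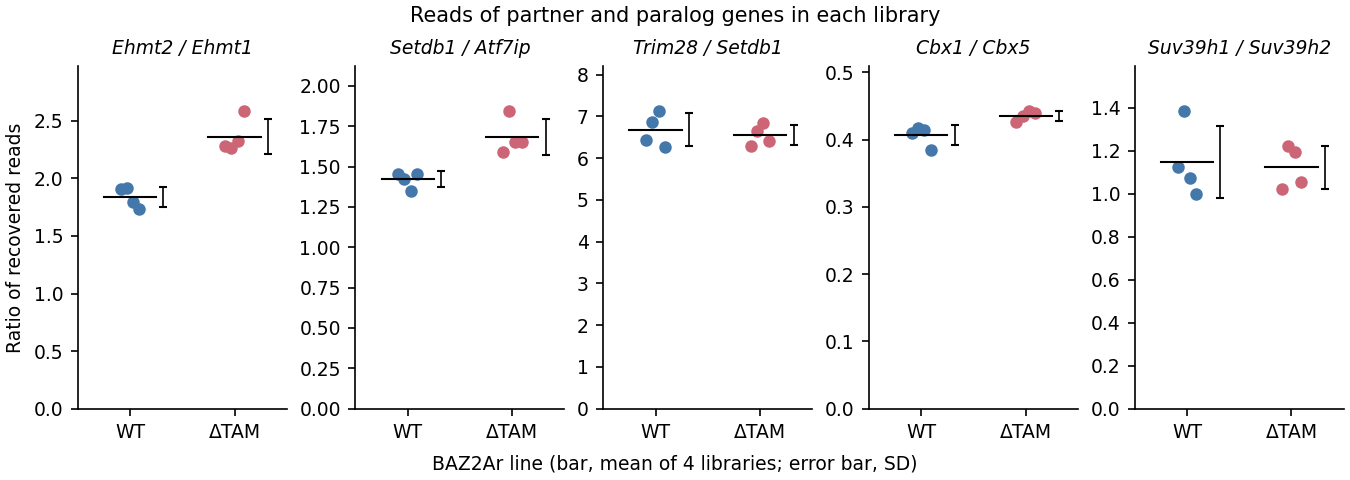
Ratio of recovered reads (vertical axes, from 0, a scale of its own for each pair) in each of the 4 WT and 4 ΔTAM libraries, with the mean as a bar and the SD as an error bar. The Ehmt2 to Ehmt1 ratio is 1.74 to 1.92 in WT and 2.27 to 2.59 in ΔTAM, and the Setdb1 to Atf7ip and Cbx1 to Cbx5 ratios are also apart, while the other 2 pairs overlap. None of the ratios was tested, and the share of other gene pairs whose ratios would be apart was not computed.

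All 3 HP1 genes were higher in every ΔTAM library than in every WT library, by small amounts. Cbx1 (HP1β; ENSMUSG00000018666, chr11:96789127-96808640) was at 1.69, 1.70, 1.74 and 1.69 RPKM in WT and at 1.95, 1.95, 1.97 and 1.97 RPKM in ΔTAM. Its groups did not overlap, and it rose by a log2 fold change of 0.19 ± 0.020 (SE; limma adjusted p = 3.4e-04), which is 15.1% in mean RPKM. Its relative SD was 1.33% in WT and 0.547% in ΔTAM, below the 2.44% and 2.28% expected from counting its reads alone. The gap can therefore not be judged by that spread. With voom the log2 fold change was 0.21 ± 0.033 (SE; limma adjusted p = 3.0e-05). Cbx5 (HP1α; ENSMUSG00000009575, chr15:103191544-103239816) was at 1.67, 1.64, 1.69 and 1.77 RPKM in WT and at 1.86, 1.81, 1.80 and 1.81 RPKM in ΔTAM. The gap between the lines, 1.77 against 1.80, was narrower than the spread within WT, and Cbx5 rose by a log2 fold change of 0.098 ± 0.027 (SE; limma adjusted p = 0.0266).

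Cbx3 (HP1γ; ENSMUSG00000029836, chr6:51470360-51483704) was at 0.613, 0.674, 0.674 and 0.624 RPKM in WT and at 0.708, 0.722, 0.720 and 0.677 RPKM in ΔTAM. Its lowest ΔTAM library lay just above its highest WT library, and it rose by a log2 fold change of 0.11 ± 0.037 (SE; limma adjusted p = 0.0474). The calls on Cbx3 and Cbx5 were fragile. Cbx3 had an adjusted p of 0.0451 to 0.111 when single libraries were left out, above 0.05 without WT replicate 1 or 4 or ΔTAM replicate 1, 2 or 3, and of 0.0614 with voom. For Cbx5 it was 0.0101 to 0.0702, above 0.05 without WT replicate 1, 2 or 3 or ΔTAM replicate 1, 2 or 4. The adjusted p of Cbx5 was 0.00904 with voom and 0.0661 with replicate number as a block. Processed copies of Cbx3 are listed as 5 pseudogene entries, with at most 2 reads in any library. How reads that match several places were counted is not given in the sources used here, so the level of Cbx3 is uncertain.

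**Figure D2:**
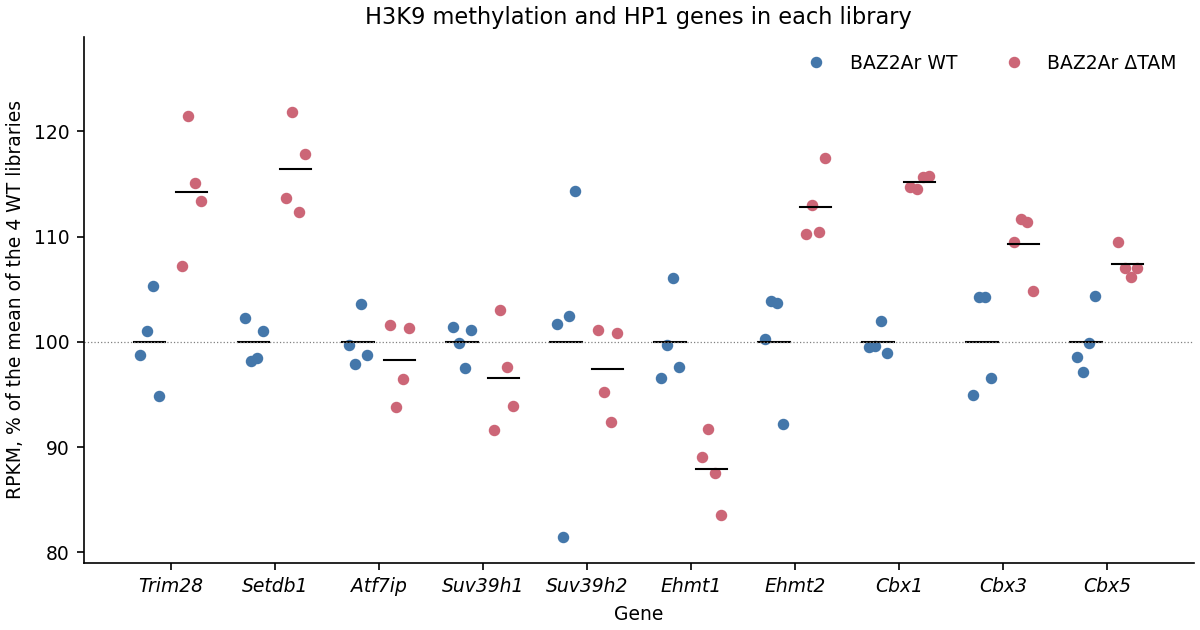
RPKM of each gene in each of the 8 libraries as a percentage of the mean of the 4 WT libraries (vertical axis), with blue points for WT, red points for ΔTAM and bars for group means. The ΔTAM points of Trim28, Setdb1, Ehmt2, Cbx1, Cbx3 and Cbx5 lie above all WT points, those of Ehmt1 lie below, and those of Atf7ip, Suv39h1 and Suv39h2 overlap with WT.

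Among the 9 genes of the set that were tested, 6 rose (Trim28, Setdb1, Ehmt2, Cbx1, Cbx3 and Cbx5) and 0 fell at an adjusted p under 0.05, whereas 19.9% of the 9002 genes tested were called higher and 16% lower. Their median log2 fold change was 0.11, against 0.011 over all genes tested. Over all 10 genes, the ΔTAM libraries were wholly above WT for 6 and wholly below for 1, against 20.5% and 16.7% of the genes tested. The changes were small. The study's thresholds, 0.58 on the log2 scale and p under 0.05, were applied here to log2(RPKM + 0.1) with an unadjusted p. At these, 0 of the 9 passed, against 3.81% of all genes tested. The largest change, that of Setdb1, exceeded in size the fold changes of 68.2% of the genes tested.

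**Figure D3:**
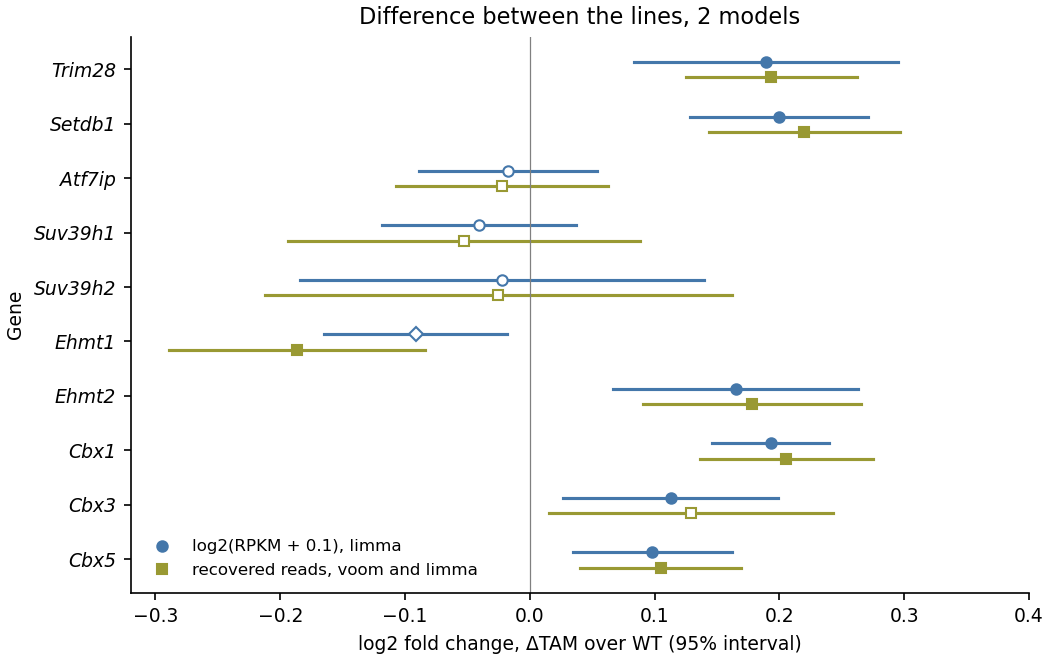
Log2 fold change of each gene, ΔTAM over WT (horizontal axis), with its 95% interval, from limma on log2(RPKM + 0.1) (blue) and from voom on recovered reads (olive). Filled symbols have an adjusted p under 0.05, and the blue diamond of Ehmt1 comes from the fit without a minimum level. Setdb1 lies at 0.20 and 0.22, Cbx1 at 0.19 and 0.21, and Ehmt1 at -0.091 and -0.19.

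To compare levels between genes, recovered reads were divided by the length of each gene's merged exons (GENCODE vM21) and scaled to the reads on genes of the library, which is another scale than that of the deposited RPKM in both length and library total. On this exon-scaled level Trim28 stood far above the others, at 351 ± 14.5 in WT (SD, n = 4), above 99.7% of 24493 genes. Cbx5 followed at 61.0 ± 2.11 and Cbx1 at 52.2 ± 0.644, and neither overlapped its neighbours in the order. Setdb1, at 31.9 ± 0.701, and Ehmt2, at 30.4 ± 1.57, overlapped each other. Ehmt1 was at 11.2 ± 0.461 and Cbx3 at 9.67 ± 0.459, and these were apart in WT, whereas in ΔTAM Cbx3, at 10.5 ± 0.292, had the higher mean, with overlapping libraries. Atf7ip at 7.43 ± 0.185, Suv39h2 at 6.87 ± 0.957 and Suv39h1 at 6.49 ± 0.127 closed the order, with each overlapping the next.

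The order depended on the length used. With exons of protein-coding transcripts alone, an alternative chosen after seeing the data, the WT mean of Cbx1 became 91.8 and that of Cbx5 61.1, so that these changed places. On the same scale Cbx3 was at 29.5 and Atf7ip at 19.1, both above Ehmt1 at 15.2. Trim28 stayed first and the SUV39H genes last under both exon lengths, at 449 for Trim28 and at 7.0 and 6.88 for Suv39h2 and Suv39h1 with coding exons. Under genomic span, Ehmt1 was last.

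**Figure D4:**
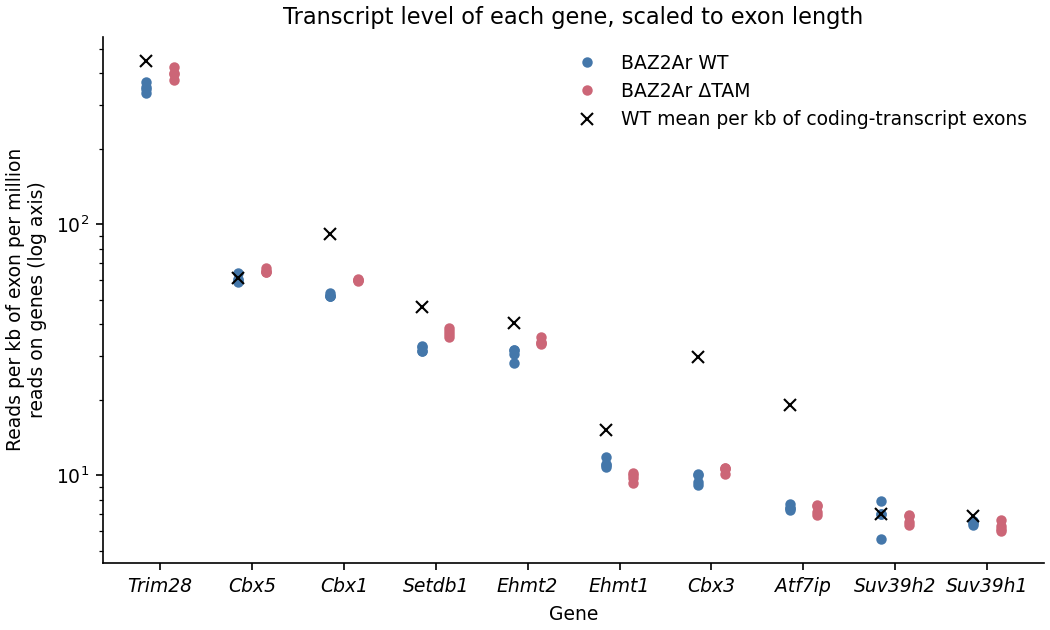
Reads per kb of merged exon, scaled to the reads on genes (vertical axis, logarithmic) in the 4 WT (blue) and 4 ΔTAM (red) libraries, with crosses for the WT mean per kb of exons of coding transcripts. Trim28 lies at 351 in WT and the SUV39H genes below 8, and the crosses of Cbx1, Cbx3 and Atf7ip lie well above their points.

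Within the HP1 family, on the exon-scaled level, Cbx5 made up 49.6% ± 1.01 of the sum in WT and 48.1% ± 0.421 in ΔTAM. Cbx1 made up 42.5% ± 0.706 in WT and 44.2% ± 0.401 in ΔTAM (SD, n = 4), and its shares in ΔTAM, 43.6 to 44.5%, were all above those in WT, 41.5 to 42.9%. Cbx3 made up 7.87% ± 0.403 and 7.76% ± 0.228, which overlap. These shares depend on the length used. From the WT means per kb of coding-transcript exons, Cbx1 made up 50.3%, Cbx5 33.5% and Cbx3 16.2%. The family's summed level was 120.9 to 125.2 in WT and 135.0 to 137.8 in ΔTAM, without overlap. That of the SUV39H pair, 12.04 to 14.5 and 12.6 to 13.1, overlapped.

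Neighbouring genes were examined because the count of a gene can take in reads of an overlapping one, and the sources used here do not state whether counting used strand. The span of Trim28 takes in the whole of Zbtb45 on the opposite strand, because of a long non-coding transcript of Trim28. Zbtb45 had 182 to 252 reads per library, against at least 10523 for Trim28, and a log2 fold change of 0.13 (limma adjusted p = 0.217). Chmp2a, which ends 975 bp beyond Trim28 on the opposite strand, fell by 0.23 on the log2 scale (limma adjusted p = 0.00498), unlike Trim28. Cers2, which overlaps the end of Setdb1 by 75 bp, rose by 0.14 (limma adjusted p = 0.0284). Hnrnpa2b1, which starts 466 bp from Cbx3 in the opposite direction, rose by 0.16 (limma adjusted p = 0.00796), and Hnrnpa1, 616 bp from Cbx5 and likewise divergent, had a log2 fold change of 0.070 (limma adjusted p = 0.0995). Slc44a4, 414 bp from Ehmt2, had one of -0.058 (limma adjusted p = 0.474). Dclre1c and Gm14820, which overlap Suv39h2 and Suv39h1, had 120 to 200 and 19 to 41 reads per library, against 188 to 266 for Suv39h2 and 211 to 278 for Suv39h1. Dclre1c, which overlaps Suv39h2 by 8316 bp on the opposite strand, was thus counted at a depth near that of Suv39h2, and the part of shared reads in the Suv39h2 values was not tested. The other genes whose spans overlap one of the set, Gm37500, Gm42578, Gm44140, Gm13184, Gm37139, Gm38147 and Gm11517, had at most 6 reads in any library. The median log2 fold change of all tested genes on each gene's chromosome lay between -0.047 (chromosome X) and 0.046 (chromosome 7).

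The other genes of the pathway, 54 in all and none of them in the set, were taken in 5 lists. In these, 37 genes were tested, 14 rose and 2 fell, beside 19.9% and 16% of all genes tested, and the median log2 fold change was 0.061. Without WT replicate 2 or ΔTAM replicate 3, 8 rose, and with voom 14 of 51 rose and 6 fell, beside 21.9% of all genes in each direction. Of 22 partners of HP1 and factors of heterochromatin assembly 20 were tested, 10 rose and 0 fell, with a median of 0.095. With voom 21 were tested, 9 rose and 1 fell, Atrx, the chromatin remodeller that acts with DAXX (log2 fold change -0.34, limma adjusted p = 0.0317). The Atrx libraries overlapped between the lines, and on log2(RPKM + 0.1) its log2 fold change was -0.25 (limma adjusted p = 0.251). Dnmt3b, a de novo DNA methyltransferase, went from 0.239 ± 0.0103 to 0.393 ± 0.0178 RPKM (SD, n = 4; log2 fold change 0.54 ± 0.037 SE, limma adjusted p = 6.1e-05). Daxx, a chaperone of the histone variant H3.3, rose by 0.23 ± 0.060 (SE; limma adjusted p = 0.0195), although the libraries of the 2 lines overlapped. The count that rose was 5 to 6 in place of 10 without WT replicate 1 or 2 or ΔTAM replicate 3.

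Among H3K9 demethylases 5 of 11 were tested, 3 rose and 0 fell, beside 19.9% and 16% of all genes tested. With voom on recovered reads, 10 of the 11 were tested, 3 rose and 1 fell, beside 21.9% of all genes in each direction. Kdm3a, which removes mono- and dimethylation from H3K9, rose by 0.27 ± 0.027 (SE; limma adjusted p = 2.9e-04), from 0.772 ± 0.0266 to 0.955 ± 0.00889 RPKM (SD, n = 4). Kdm1a (LSD1) rose by 0.17 ± 0.028 (SE; limma adjusted p = 0.00272). Transcripts of enzymes that add and of enzymes that remove H3K9 methylation were among those that rose.

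Partners of SETDB1 and subunits of the HUSH complex, which silences transposons with SETDB1 and MORC2A, had calls in both directions. Of 12 genes 10 were tested, 1 rose and 2 fell, beside 19.9% and 16% of all genes tested, and the median was 0.0042. The count that rose was 0 without WT replicate 2, 3 or 4 or ΔTAM replicate 1, 2 or 3, and with voom 2 rose and 3 fell. Zfp57, a KRAB zinc-finger protein that recruits TRIM28 to imprinted loci, fell by 0.18 on the log2 scale, from 9.04 ± 0.25 to 7.95 ± 0.180 RPKM (SD, n = 4; limma adjusted p = 0.00204). Morc2a fell by 0.13 on the log2 scale (limma adjusted p = 0.0125). Of the other H3K9 methyltransferases 1 of 4 genes was tested (Prdm2, log2 fold change -0.037, limma adjusted p = 0.514), and of the G9a and GLP partners 1 of 5 (Wiz, -0.082, limma adjusted p = 0.123). Prdm16, a methyltransferase of the first list that lay under the minimum level, had at most 56 reads in a WT library and at most 16 in a ΔTAM library, without overlap in RPKM, and a log2 fold change of -1.81 with voom (limma adjusted p = 6.7e-07).

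**Figure D5:**
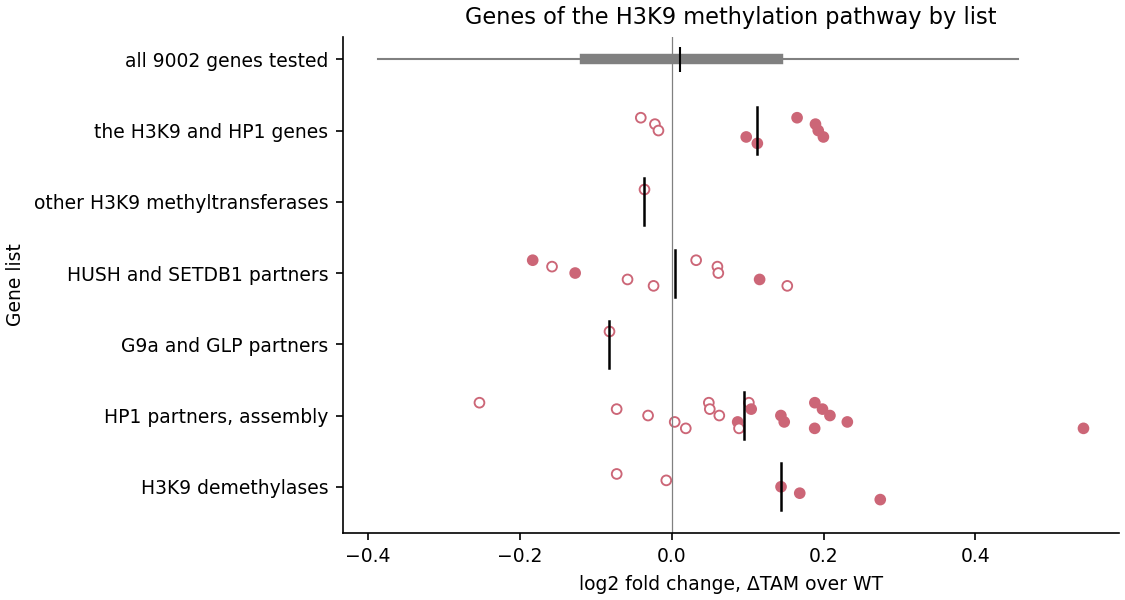
Log2 fold change, ΔTAM over WT (horizontal axis), of the tested genes of each list, with filled points for an adjusted p under 0.05 and a black line for the list's median. For all 9002 genes tested, the thick bar spans the middle 50% (from -0.11 to 0.14) and the thin line the middle 90% (from -0.39 to 0.46). HP1 partners have a median of 0.095 and HUSH and SETDB1 partners one of 0.0042.

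A last list held 15 genes that G9a, GLP or SETDB1 is known to repress in ESCs. Only 3 of them passed the minimum of 0.1 RPKM, and Zscan4c and Zscan4d did so through their ΔTAM level, so their count says nothing about the list. Dazl, a germline RNA-binding protein, was at 0.742, 0.853, 0.815 and 0.887 RPKM in WT and at 1.41, 1.32, 1.34 and 1.35 RPKM in ΔTAM. The groups were far apart, and Dazl rose by 0.66 ± 0.050 (SE; limma adjusted p = 9.5e-05). Zscan4c, a marker of the 2-cell-like state, was at 0.0505 ± 0.00941 RPKM in WT, with at most 16 reads, and at 0.290 ± 0.00825 RPKM in ΔTAM (SD, n = 4). Zscan4d, a near-identical copy that can share its reads, was at 0.0578 ± 0.0193 and 0.348 ± 0.0644 RPKM. The remaining 12 had means of at most 0.0608 RPKM in either line. Of these, Zfp352 went from 0.00859 to 0.0464 RPKM with no overlap between the lines, on at most 23 reads. The 12 also include the germline genes Mael (0.0392 and 0.0394 RPKM), Ddx4 (0.0357 and 0.0324 RPKM) and Stk31 (0.0586 and 0.0608 RPKM), whose libraries overlapped between the lines. 2 of the 5 Magea genes, Magea3 and Magea6, had no reads in any library.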

How the data were processed

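Polyadenylated RNA of 8 E14 ESC libraries (4 WT, 4 ΔTAM, grouped by GEO's labels) was sequenced by the authors with a stranded kit. Per the study's methods, ribosomal reads were removed with SortMeRNA, reads trimmed with Trimmomatic and mapped to mm10 (GRCm38) with STAR, and exon coverage per gene was given as RPKM. The deposited RPKM were found to be per kb of genomic span, so genes with long introns have low values. How the authors assigned reads that match several places, and whether strand was used, is not given in the sources used here.

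Of 51288 entries, 386 repeats were set aside. The 9002 genes that averaged 0.1 RPKM or more were tested on log2(RPKM + 0.1), which understates changes of low genes, with limma 3.58.1 (lmFit, eBayes with trend; R 4.3.3) over all 8 libraries without covariates, adjusted by Benjamini-Hochberg over all genes tested; calls used 0.05. Intervals are 95%. Whole reads were recovered from the steps of the RPKM (99.59% of values of up to 1000 steps lay within 0.05 of a whole step) and tested with voom on 12659 genes with at least 10 mean reads. Exon lengths came from GENCODE vM21 and promoters from RefSeq. Motifs were searched as printed, on both strands.

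The genes and lists were chosen with earlier results of these data known. Named are the 10 genes, Baz2a, in each list the 2 tested genes with the largest change at an adjusted p under 0.05, genes overlapping a member, pseudogenes named after one, and markers as ranges. Tested genes within 1000 bp of a member, single ESC and other markers and further genes of the lists were named after their values were seen, and 1 result on a listed gene is not reported here. Alternatives were other pseudocounts, minimum levels, scaling, variance model, a replicate block, voom, repeats kept, and leaving out each library.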

Additional observations from a re-analysis of the deposited data

How the results depend on the processing

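Trim28, Setdb1 and Cbx1 kept their direction and an adjusted p under 0.05 in all 17 alternatives run for each. Ehmt2 did so in 15 of 17, Cbx5 in 10 of 17 and Cbx3 in 8 of 16. Ehmt1 was under 0.05 in 2 of 15, with voom (0.00418) and with the variance prior fitted without a trend (0.0245). When single libraries were left out, the log2 fold change of Suv39h2 ranged from -0.087 to 0.026 and the count of genes of the set that rose from 4 to 5, against 6 with all libraries. With voom 5 rose and 1, Ehmt1, fell. In the other alternatives 0 of the genes that passed the minimum level fell, which leaves out Ehmt1 wherever that minimum is 0.1 RPKM or more. Of 37 pathway genes tested 14 rose and 2 fell, against 7 and 1 of the 12 tested with a minimum of 1 RPKM and 14 and 6 of the 51 tested with voom. Without single libraries 8 to 13 rose, with 8 without WT replicate 2 or ΔTAM replicate 3.

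Over all genes, 1792 were called higher and 1436 lower, against 591 and 401 with a minimum of 1 RPKM, where fewer genes are tested, and 2769 and 2771 with voom. By the study's thresholds, applied to log2(RPKM + 0.1) with an unadjusted p, 211 were higher and 132 lower. These became 46 and 33 with a minimum of 1 RPKM, 32 and 15 with 1 RPKM added and 656 and 839 with voom, and 241 were lower with 0.01 RPKM added. The cause of the shifts with voom was not tested. The study itself reported several times more genes in each direction at its thresholds, with more lower than higher. Its measure was thus not reproduced here, and the cause of that gap was not tested. Under the replicate block, 1558 genes were higher and 1239 lower. Residuals of same-numbered libraries correlated at 0.062, 0.033, 0.024 and 0.055, none over 0.1. Replicates 1, 2 and 4 correlated best with their own number in both lines and replicate 3 in neither, a hint from the data and not from the design, so the libraries are taken to share only a number. With the block, adjusted p was 0.0654 for Ehmt2 and 0.0661 for Cbx5. Counting error alone was largest for Suv39h2, Suv39h1 and Cbx3, with an expected relative SD of 6.64%, 6.24% and 4.80% in WT.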
